A study of Mus musculus with 34 samples.

Results

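The genes of the NRF2 pathway and of antioxidant defence were followed across mouse liver tumors driven by c-Myc, by TGFα or by both, across livers in which the transgenes had been turned off, and across normal livers. The set held 10 genes, chosen by name: the regulators Nfe2l2 and Keap1, the glutathione synthesis genes Gclc and Gclm, the thioredoxin system genes Txnrd1, Srxn1, Prdx1 and Txnip, and the enzymes Nqo1 and Akr1b8. Every array probe that carried one of these names was read, which gave 16 of the 41174 probes on the array. All 16 passed the filter on dim probes and none was saturated. Nfe2l2 and Srxn1 had 3 probes each, Gclm and Txnip had 2 each, and the other 6 genes had 1 each. Where a gene had several probes, it was read at the brightest.

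NRF2, the protein of Nfe2l2, is a transcription factor that switches on genes against oxidants and electrophiles. In unstressed cells the adaptor KEAP1 holds it and passes it to a ubiquitin ligase for destruction. Oxidants modify KEAP1, NRF2 then builds up, pairs with a small MAF protein and binds antioxidant response elements near genes for glutathione synthesis, thioredoxin recycling, quinone reduction and NADPH supply. The liver, which clears drugs and makes much of the body's glutathione, depends on these genes, and mutations that activate the pathway are known in human hepatocellular carcinoma.

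The RNA of each sample was labelled with Cy3 and hybridised against Cy5-labelled RNA pooled from livers of C57BL/6 mice of both sexes. The 34 samples formed 10 groups: normal control liver without a transgene (3), end-stage tumors with the c-Myc transgene (7), the TGFα transgene (3) or both (3), and livers with the same transgenes turned off for 4 weeks (3 for each of c-Myc, TGFα and both) or for 12 weeks (3 for each). The labels give the off times as weeks on doxycycline (0, 4 or 12), with 0 for tumors and controls. The labels name no age, sex, promoter or strain for the sample mice. They call the samples biological replicates, and where separate animals are not named the p-values measure the spread between these samples.

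Each value below is the log2 ratio of sample over reference, so that 0 is the level of the reference pool. Between 43.7% and 71.8% of probes stood well above background in Cy3 on an array, and all 16 probes of the set but 1 were well above background on all 34 arrays. A slide of its own held TGFα tumors 2 and 3 with the first liver off TGFα for 4 weeks, and these 3 arrays went against the liver label. The median signal percentile of hepatocyte markers was 77.4 to 84.8 in their sample channel, against 95.4 to 99.8 on the other 31 arrays. That of intestine markers was 98.9 to 99.7, against 35.6 to 89.5, and the reference channel of the same 3 arrays differed likewise. These 3 arrays were kept out of every fit and are given apart. TGFα tumor 1, then the single array of its group, read 3.28 and 3.55 at the Myc probes A_52_P108346 and A_52_P278549, where the 3 controls read -1.07 to 0.50. The library labelled TGFα tumor 1 thus had Myc values like those of c-Myc tumors. At the same pair of probes c-Myc tumor 5 (1.04 and 0.10) and TGFα/c-Myc tumor 3 (0.83 and 0.07) were low. The third Myc probe, A_51_P102096, was not higher in the c-Myc tumors than in the controls, at -0.96 to 0.43 against -0.54 to 0.16. All c-Myc tumors but the first were scanned apart from every other group, on another scanner and other days. Differences of these tumors from other groups therefore cannot be told apart from scanner, outside the comparisons within or adjusted for scan day.

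NRF2 with its MAF partner is known to bind the antioxidant response element, whose core is written here as TGACNNNGC and was searched on both strands. The table of RefSeq promoters used here (assembly GRCm38.p6, with 250 bases before to 50 after each start) was matched for 9 of the 10 genes, Gclc being the unmatched one, and gave 11 promoters. The core was present in 5 of these 11, those of Nfe2l2, Gclm, Txnrd1, Srxn1 and Prdx1, and in 12.4% of the 32851 listed promoters of the same length. The stretches around these matches are shown so that the members can be compared. Of the 5 genes with a match Srxn1 was lower in c-Myc tumors below, and of the 4 without one (Keap1, Akr1b8, Nqo1 and Txnip) Keap1 and Akr1b8 were. Capitals mark the match. In the Nfe2l2 promoter it lies on the strand shown, and in the other 4 it is the reverse complement.
Nfe2l2, chr2:75704870-75704913, minus strand: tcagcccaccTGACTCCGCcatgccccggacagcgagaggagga
Gclm, chr3:122245398-122245456, plus strand: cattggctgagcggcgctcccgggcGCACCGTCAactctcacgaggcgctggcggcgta
Txnrd1, chr10:82859089-82859147, plus strand: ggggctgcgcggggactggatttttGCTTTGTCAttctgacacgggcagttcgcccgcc
Srxn1, chr2:152105537-152105560, plus strand: ggcgggcagtgggcaGCTAGGTCA
Prdx1, chr4:116685441-116685499, plus strand: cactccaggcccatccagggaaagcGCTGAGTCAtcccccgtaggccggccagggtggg

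Counted from the transcription start, the first base of the match was at -240 in Nfe2l2, -134 in Gclm, -92 in Txnrd1, -133 in Prdx1 and 29 in Srxn1. The E-box CACGTG, the site that MYC with MAX is known to bind, was searched in the same way. It was in 0 of the 11 promoters of the set and in 7.15% of all listed promoters. A match is a run of letters and not a measured binding site, and a missing match concerns this window alone.

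In c-Myc tumors 4 of the 10 genes were lower than in control liver and none was higher. Gclc, the catalytic subunit of the enzyme that limits glutathione synthesis, had the largest drop of the 10, followed by the aldo-keto reductase Akr1b8, the sulfiredoxin Srxn1 and the NRF2 inhibitor Keap1. Nfe2l2 itself, Gclm, Nqo1, Txnrd1, Prdx1 and Txnip did not pass the test. In this comparison 35.9% of the 21956 genes tested passed in either direction and 17.1% were lower, so 4 of 10 is near the background for either direction. The median difference was -0.50 over the members and -0.015 over all genes.

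Gclc read 0.64, 0.48 and 0.51 in the 3 control livers. In the 7 c-Myc tumors it ran from -2.49 through a median of -2.27 to -1.48. Every tumor lay below every control, and the means were -2.13 ± 0.36 (SD, n = 7) and 0.54 ± 0.08 (SD, n = 3). The log2 difference was -2.67 (SE 0.28, limma adjusted p = 5.93e-07), a 6.38-fold lower level. c-Myc tumor 5, with its low Myc values, gave the highest Gclc of the 7. Its hepatocyte markers also had the highest median signal percentile, 99.2 against 95.4 to 98.2 in the other c-Myc tumors. A link of Gclc with either was not tested.

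Akr1b8, which reduces aldehydes and is related to the aldose reductases, read 1.55, 1.19 and 1.76 in the controls. In the c-Myc tumors it ran from -1.56 through -0.89 to 0.27. The groups did not overlap, and the controls stood above the reference while 6 of the 7 tumors stood below it. The difference was -2.27 (SE 0.43, limma adjusted p = 0.000331), or 4.83-fold lower.

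Srxn1, which repairs over-oxidised peroxiredoxins, read -0.23, 0.30 and 0.10 in the controls. In the c-Myc tumors it ran from -2.56 through -1.75 to -0.59. The tumors formed a low set of 4 (replicates 1, 2, 6 and 7, at -1.75 or below) and a set of 3 nearer the controls (replicates 3, 4 and 5, at -0.82 to -0.59), with no overlap with the controls in either. The difference was -1.57 (SE 0.44, limma adjusted p = 0.00797), or 2.97-fold lower. The other Srxn1 probes, A_51_P330125 and A_52_P593200, share 13 bases of sequence and were dimmer. Their differences, -0.47 (adjusted p = 0.22) and -0.14 (adjusted p = 0.804), did not pass, and on both the groups overlapped.

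Keap1 was read by a single 60-base probe, which is shown since the finding on the pathway's inhibitor rests on it.
Keap1 probe A_51_P438666: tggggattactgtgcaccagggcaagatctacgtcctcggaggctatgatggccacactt

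Keap1 read 1.27, 0.89 and 0.61 in the controls and -0.55 to 0.15, with a median of -0.36, in the c-Myc tumors. All 7 tumors were below all 3 controls. The difference was -1.22 (SE 0.21, limma adjusted p = 0.000114), or 2.32-fold lower.

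**Figure D1:**
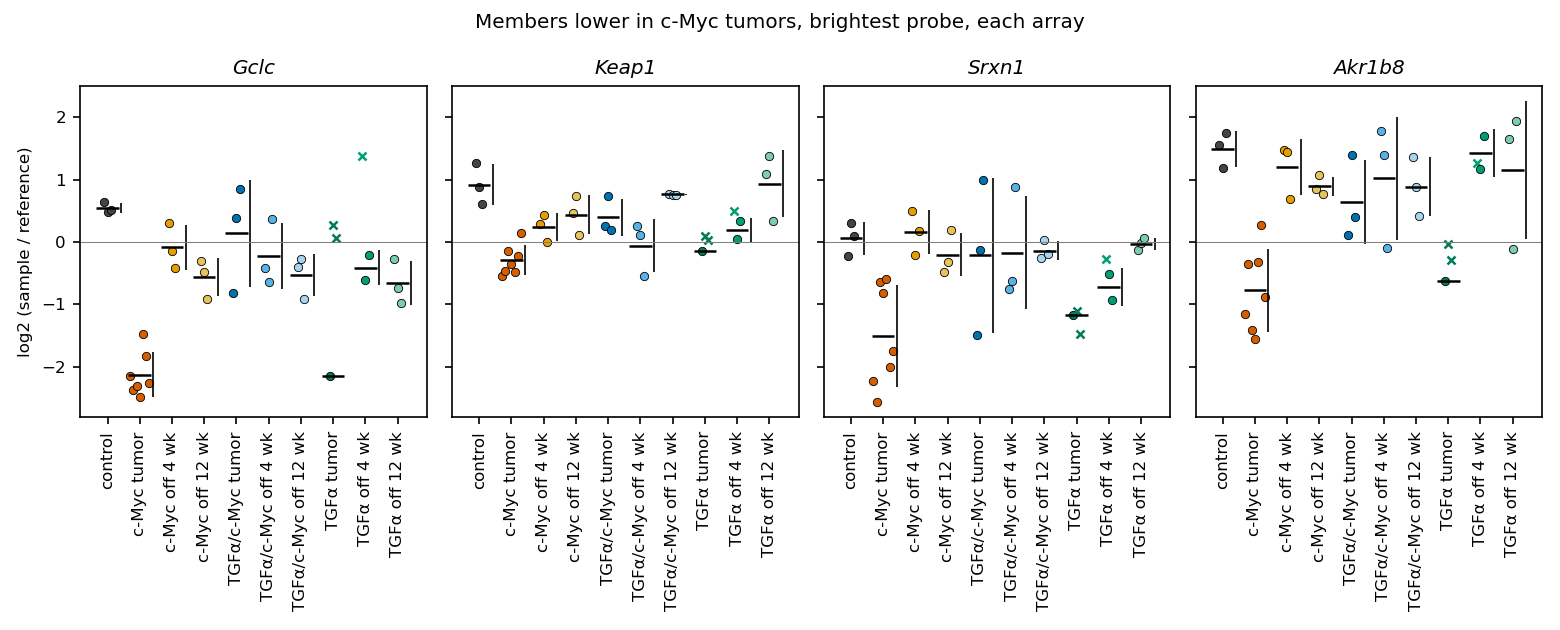
Log2 ratio of sample over reference (vertical axis) of Gclc, Keap1, Srxn1 and Akr1b8 on each array, at the brightest probe, by group (horizontal axis). Points are arrays, horizontal bars are means, vertical lines span 1 SD on each side of the mean, and crosses are the 3 arrays kept apart. In all 4 panels the 7 c-Myc tumors lie below the 3 controls, with Gclc at -2.49 to -1.48 against 0.48 to 0.64.

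The deposited log10 ratios of the scanner software, with the sign turned and converted to log2, gave close values. Their Gclc means were 0.47 ± 0.03 (SD, n = 3) in controls and -2.18 ± 0.40 (SD, n = 7) in c-Myc tumors, a difference of -2.65 (SE 0.31). For Akr1b8 the same source gave -2.42 (SE 0.48), for Srxn1 -1.70 (SE 0.50) and for Keap1 -1.28 (SE 0.22). All 4 calls also held when each of the 10 arrays of this comparison was left out in turn, which does not separate tumor from scanner. Median centring in place of the loess curve ended the calls of Keap1 (-0.72, adjusted p = 0.413) and Srxn1 (-1.10, adjusted p = 0.155), and scaling the arrays to a common spread ended those of Gclc (-1.77, adjusted p = 0.642), Srxn1 (-0.84, adjusted p = 0.87) and Akr1b8 (-1.68, adjusted p = 0.385). Of 23 settings besides leaving arrays out, 3 ended the Akr1b8 call, 2 that of Srxn1 and 1 each those of Gclc and Keap1. One scan day held both groups, with 1 c-Myc tumor and 1 control. The differences between this pair of arrays were -2.64 for Gclc, -1.43 for Keap1, -2.52 for Srxn1 and -2.35 for Akr1b8. A single array a group has no spread of its own, so no test is read from them.

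The 6 remaining genes differed less than their spread allowed to call. Nfe2l2 read -0.10, -0.67 and -0.55 in controls and -0.63 to 0.28 (median -0.01) in c-Myc tumors, a difference of 0.36 (adjusted p = 0.358). Nqo1, the quinone reductase often used as a readout of NRF2, read 0.71, -0.39 and -0.12 in controls. In the c-Myc tumors it ran from -2.79 through 0.02 to 0.84, the widest spread of the 10 genes in that group (SD 1.38, n = 7). Tumors 1 and 6 stood at -2.05 and -2.79, the other 5 between -0.35 and 0.84, and the difference was -0.58 (adjusted p = 0.435). Both tumors with low Nqo1 also belonged to the low set for Srxn1, while tumors 2 and 7 were low for Srxn1 with Nqo1 at 0.64 and -0.35.

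Gclm, the modifier subunit that pairs with the Gclc protein, differed by -0.15 (adjusted p = 0.662), so the genes of this enzyme's subunits did not share a call. Gclm read 0.41, -0.03 and -0.70 in controls and -0.54 to 0.03 in the tumors, inside the range of the controls. Its second probe, A_52_P669425, gave -0.17. Txnrd1, the cytosolic thioredoxin reductase, differed by -0.42 (adjusted p = 0.103), with controls at 0.20, 0.45 and 0.07 and tumors at -0.79 to 0.59. Prdx1, the abundant cytosolic peroxiredoxin, differed by 0.44 (adjusted p = 0.317) and ranged widely in the controls, from -1.78 to -0.26. Txnip, which binds and blocks thioredoxin, differed by 0.30 (adjusted p = 0.506), with controls at -0.75, -1.68 and -1.75 and tumors at -1.65 to -0.72.

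**Figure D2:**
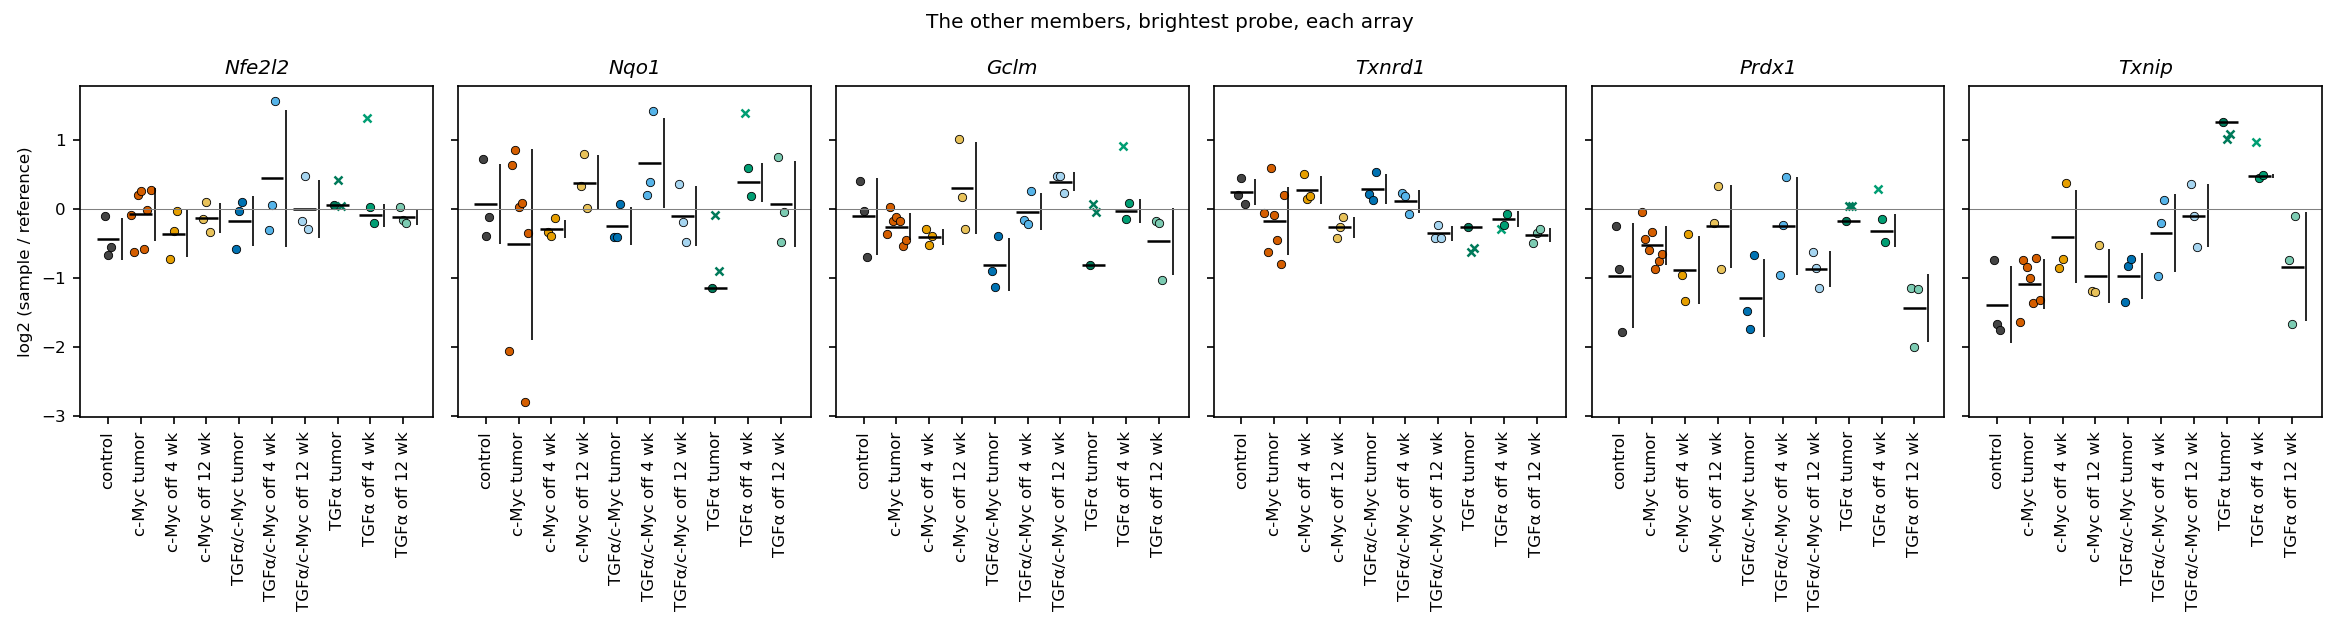
Log2 ratio of sample over reference (vertical axis) of Nfe2l2, Nqo1, Gclm, Txnrd1, Prdx1 and Txnip on each array, at the brightest probe, by group (horizontal axis), with means as horizontal bars, 1 SD on each side as vertical lines and crosses for the 3 arrays kept apart. The c-Myc tumors and the controls overlap in all 6 panels, and 2 c-Myc tumors stand apart for Nqo1, at -2.05 and -2.79.

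Cell type markers moved with the c-Myc tumors. Of the hepatocyte markers 7 of 9 measured were lower, none higher, and their mean log2 ratio was -0.36 to -0.10 in controls and -2.97 to -0.63 in c-Myc tumors. Endothelial markers were lower in 4 of 8, at -0.50 to -0.27 in controls and -2.53 to -1.10 in tumors. Neutrophil markers were higher in 5 of 7, at 0.21 to 0.32 and 0.05 to 2.26, and proliferation markers in 8 of 8, at -0.54 to -0.40 and 0.01 to 3.42. Of 10 macrophage markers 4 were higher and 3 lower, and of 9 lymphocyte markers 4 were lower. Median centring left 3 hepatocyte and 3 endothelial markers lower, and 4 neutrophil and 7 proliferation markers higher. Scaling to a common spread left 0 hepatocyte and 0 endothelial markers lower, and 1 neutrophil and 1 proliferation marker higher. The part of these markers in the member results was not tested. In bulk tissue fewer cells of a type and less RNA per cell cannot be told apart.

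After 4 weeks with c-Myc off, the genes Gclc, Akr1b8 and Srxn1 were higher than in the c-Myc tumors, and no member was lower. That is 3 of 10, where 31.6% of all genes passed in either direction and 14.2% were higher. Gclc read 0.31, -0.15 and -0.42 in these livers, all above every c-Myc tumor. It rose by 2.04 (SE 0.28, limma adjusted p = 1.76e-05), or 4.12-fold. Akr1b8 read 1.48, 1.44 and 0.69, all above every tumor, and rose by 1.98 (SE 0.43, adjusted p = 0.0014). Srxn1 read 0.50, -0.20 and 0.18, also above every tumor, and rose by 1.67 (SE 0.44, adjusted p = 0.00593). Keap1 read 0.28, 0.44 and 0.01, which overlapped the tumors (highest 0.15), and differed by 0.54 (adjusted p = 0.0544). These 3 calls held with each array left out, and ended under median centring (Gclc 1.41, Akr1b8 1.41, Srxn1 1.09) and under scaling of the arrays to a common spread (Gclc 0.41, Akr1b8 2.94, Srxn1 1.25). In these livers 7 of 9 hepatocyte and 6 of 8 endothelial markers were higher than in the tumors. All 8 proliferation and 3 of 7 neutrophil markers were lower. Median centring left 2 hepatocyte and 3 endothelial markers higher, and 7 proliferation and 2 neutrophil markers lower. Scaling to a common spread left 0 hepatocyte and 0 endothelial markers higher, and 2 proliferation and 0 neutrophil markers lower. The part of these markers was not tested. One scan day held all 3 off livers and a single c-Myc tumor. From that tumor they differed by 2.07 in Gclc, 2.36 in Akr1b8 and 2.38 in Srxn1, values read without a test since 1 tumor has no spread.

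After 12 weeks, 4 of 10 were higher than in the tumors, where 31.2% of all genes passed in either direction and 14.8% were higher. Gclc read -0.30, -0.48 and -0.91, still above every tumor, and rose by 1.57 (SE 0.28, limma adjusted p = 0.000233). Akr1b8 at 0.85, 1.07 and 0.76 rose by 1.67 (adjusted p = 0.00539), Srxn1 at -0.48, -0.31 and 0.19 rose by 1.31 (adjusted p = 0.028), and Keap1 at 0.47, 0.75 and 0.11 rose by 0.74 (adjusted p = 0.00977). Gclc, Akr1b8 and Srxn1 did not overlap the tumors, while Keap1 did, with 0.11 in a liver and 0.15 in a tumor. At the dimmer probes, Nfe2l2 A_52_P523835 (0.75, adjusted p = 0.00473) and Gclm A_52_P669425 (0.63, adjusted p = 0.0157) were higher too, while the brightest probes of both genes were not called, in a comparison where 29.4% of all probes passed. Leaving out replicate 2 of the 12-week livers ended the Keap1 call (adjusted p = 0.0882), and leaving out any of 5 arrays (c-Myc tumors 1 and 2 or any 12-week liver) ended that of Srxn1 (highest adjusted p = 0.126). No scan day held both groups, and once scan day entered the fit none of the 4 calls held (Gclc 1.52, limma adjusted p = 0.365, Akr1b8 1.86, Srxn1 2.44 and Keap1 0.91). Scaling the arrays to a common spread turned the Gclc difference to -1.92 (adjusted p = 0.521), and it and median centring each ended the Keap1 call (0.92 and 0.99). Of 22 settings besides leaving arrays out, 4 ended the Keap1 call and 4 that of Srxn1. In the 12-week livers 7 of 9 hepatocyte and 5 of 8 endothelial markers were higher than in the tumors. All 8 proliferation and 5 of 7 neutrophil markers were lower. Median centring left 6 hepatocyte and 5 endothelial markers higher, and 7 proliferation and 3 neutrophil markers lower. Scaling to a common spread left 0 hepatocyte, 0 proliferation and 0 neutrophil markers called, and 1 endothelial marker lower. The part of these markers was not tested.

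Against control liver, the members of the c-Myc off livers were not called at 4 or at 12 weeks, in comparisons where 0.00455% and 0.15% of genes passed. At an unadjusted p under 0.05 there were 2 members at each time. Even so the Gclc ranges did not overlap: controls at 0.48 to 0.64 lay above the 4-week livers (highest 0.31) and the 12-week livers (highest -0.30). The Gclc differences were -0.63 (SE 0.34, adjusted p = 1) and -1.10 (SE 0.34, adjusted p = 0.166). Keap1 at 4 weeks did not overlap the controls either, with a difference of -0.68 (SE 0.25, adjusted p = 0.955). Of the 10 members 2 at 4 weeks and 3 at 12 weeks did not overlap the controls. The share of all genes without overlap was not counted, so no result is read from it. The 12-week and 4-week livers did not differ in any member by this test, with 1 of 21956 genes called (0.00455%) and 2 members at an unadjusted p under 0.05, Gclm (0.71) and Txnrd1 (-0.54).

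**Figure D3:**
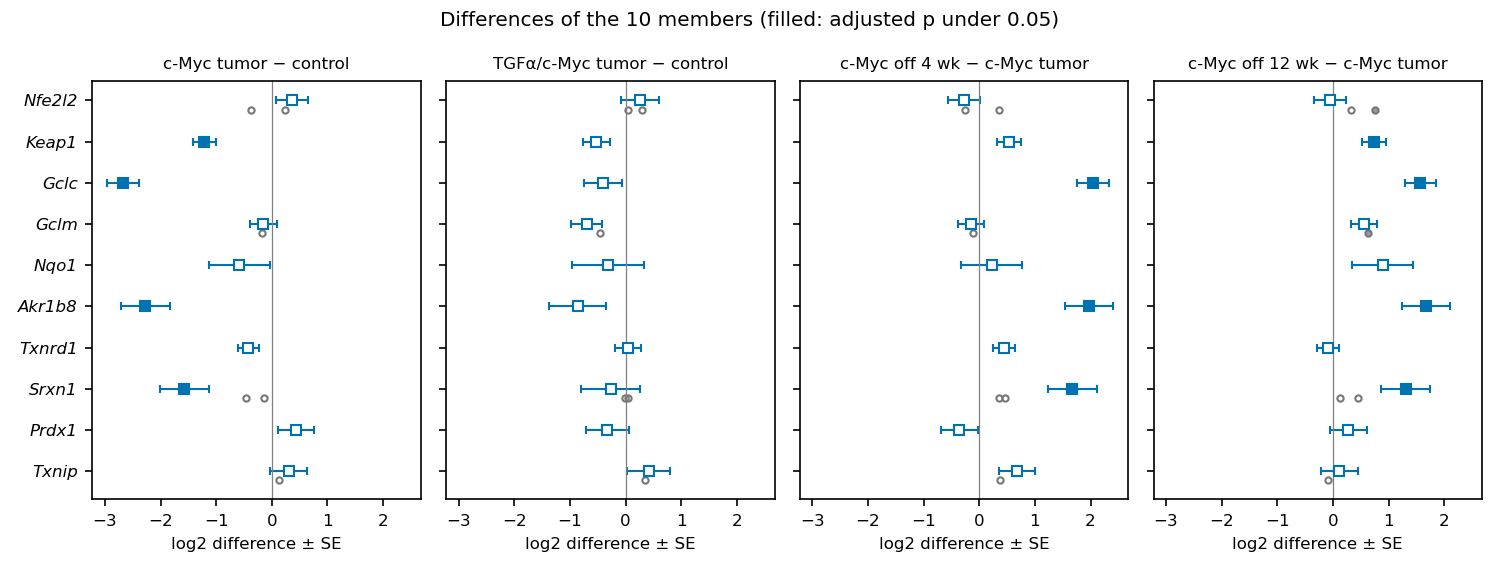
Log2 difference with its standard error (horizontal axis) for each of the 10 genes (vertical axis) in 4 comparisons. Squares are the brightest probes and small circles the other probes, and filled symbols passed an adjusted p of 0.05. Gclc, Akr1b8 and Srxn1 are filled on the left in c-Myc tumors against controls and on the right in c-Myc off livers against tumors, and no symbol is filled for TGFα/c-Myc tumors against controls.

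In tumors with both transgenes limma called none of the 10 genes against control liver, where 1.91% of all genes passed. At an unadjusted p under 0.05 there were 2, Gclm (-0.70, adjusted p = 0.261) and Keap1 (-0.53, adjusted p = 0.36). With the deposited log ratio of the scanner software Gclm passed, at -1.22 (adjusted p = 0.0205). Gclc read -0.82, 0.39 and 0.84 in the 3 TGFα/c-Myc tumors. The last of these, tumor 3 with low Myc values, stood above all controls, and tumor 1 below them. A link with the Myc values was not tested. Srxn1 likewise read -1.50, -0.13 and 0.99, and Akr1b8 read 0.12, 1.40 and 0.41.

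Set directly against the c-Myc tumors, the TGFα/c-Myc tumors were higher in Gclc, Akr1b8, Srxn1 and Keap1, 4 of the 10, where 24.8% of all genes passed in either direction and 11.9% were higher. Gclc was higher by 2.27 (SE 0.28, limma adjusted p = 2.26e-05), with no overlap. Akr1b8 was higher by 1.41 (SE 0.43, adjusted p = 0.0208), Srxn1 by 1.30 (SE 0.44, adjusted p = 0.0354) and Keap1 by 0.69 (SE 0.21, adjusted p = 0.0187). Keap1 did not overlap, at 0.26, 0.74 and 0.19 against at most 0.15, while Akr1b8 and Srxn1 did. This comparison and that with control share the c-Myc tumors, and so do those of the off livers, so they are not independent. Without TGFα/c-Myc tumor 2 the calls of Akr1b8 (1.03, adjusted p = 0.191), Keap1 (0.52, adjusted p = 0.172) and Srxn1 (1.26) ended, and that of Gclc held without any single array of the comparison. Srxn1 also lost its call without TGFα/c-Myc tumor 3 (0.70, adjusted p = 0.314) or without c-Myc tumor 1, 2, 6 or 7 (1.12 to 1.26), and at 0.85 (adjusted p = 0.172) without both tumors that were low at the Myc probes. No scan day held both groups, and once scan day entered the fit Gclc differed by 1.79 (adjusted p = 0.211) and none of the 4 was called. Under median centring Keap1 turned to -0.17, and Gclc at 1.30 (adjusted p = 0.109), Akr1b8 at 0.62 and Srxn1 at 0.40 were no longer called. Of 22 settings besides leaving arrays out, 9 ended the Srxn1 call, 7 that of Akr1b8 and 3 that of Gclc. For Keap1 5 ended the call and 1 more turned the sign.

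In livers with both transgenes off, Gclc was not called against the tumors. It read -0.41, -0.64 and 0.37 at 4 weeks and -0.39, -0.27 and -0.92 at 12 weeks, against -0.82, 0.39 and 0.84 in the tumors. The differences were -0.37 (adjusted p = 0.667) and -0.67 (adjusted p = 0.384). The test of the responses themselves, the change from tumor to off liver with both transgenes less that with c-Myc alone, gave -2.41 for Gclc at 4 weeks (SE 0.44, limma adjusted p = 0.00128) and -2.24 at 12 weeks (SE 0.44, adjusted p = 0.0116). For Keap1 it gave -0.99 at 4 weeks (SE 0.32, adjusted p = 0.0429) and -0.37 at 12 weeks (adjusted p = 0.576). For Srxn1 and Akr1b8 it gave -1.63 (adjusted p = 0.118) and -1.59 (adjusted p = 0.12) at 4 weeks, which were not called. In these response tests 14.1% of all genes passed at 4 weeks (6.89% in the negative direction) and 2.81% at 12 weeks (1.45%). Each response value contains the difference between the TGFα/c-Myc and c-Myc tumors given above, so it is not independent of that comparison. At 4 and at 12 weeks the Gclc values of the livers off both transgenes overlapped those of the livers off c-Myc. The 4-week Gclc call held without any single array. The 12-week one ended without TGFα/c-Myc tumor 2 (adjusted p = 0.059) and when scan day entered the fit (-1.71, adjusted p = 0.363). The Keap1 call ended without any of 8 of the 16 arrays (c-Myc tumors 1, 2 and 4, c-Myc off replicates 1 and 2, TGFα/c-Myc tumor 2, and replicates 2 and 3 off both transgenes, with an adjusted p of at most 0.144). Under median centring the 4-week Keap1 value turned to 0.37, and the Gclc values, -0.89 and -1.60, were no longer called.

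Gclm was the member called at its brightest probe in livers off both transgenes against their tumors, and that at 12 weeks only. It read -0.90, -1.13 and -0.39 in the TGFα/c-Myc tumors and 0.47, 0.47 and 0.23 in the livers off for 12 weeks. The ranges did not overlap, and Gclm rose by 1.20 (SE 0.28, limma adjusted p = 0.0174), in a comparison where 4.29% of all genes passed and 2.04% were higher. The second Gclm probe read -0.12, 0.01 and -0.28 there and differed by 0.66 (adjusted p = 0.125). The call of the brighter probe ended when any of 4 arrays was left out (TGFα/c-Myc tumor 1 or 2, or 12-week liver 1 or 2, with an adjusted p of at most 0.0972), and when scan day entered the fit (1.22, adjusted p = 0.253). At 4 weeks the livers read -0.17, -0.22 and 0.26. There the second probe passed (0.94, adjusted p = 0.0139), as did 6.77% of all probes, and the brighter one did not (0.77, adjusted p = 0.112), and no member gene was called at its brightest probe (7.69% of all genes were, and 2 members had an unadjusted p under 0.05, Gclm and Prdx1).

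Against control, Keap1 was the member called in the livers off both transgenes for 4 weeks, where 5.65% of all genes passed and 2.58% were lower. It read 0.26, 0.12 and -0.55, all below the lowest control at 0.61, and was lower by the log2 difference of -0.98 (SE 0.25, limma adjusted p = 0.0214). Across all genes replicate 3, the lowest, had a mean correlation of 0.138 with the rest of its group, against 0.525 for replicate 2. Without it Keap1 differed by -0.74 (adjusted p = 0.108), and the call also ended without control 1 (adjusted p = 0.0735) or control 2 (adjusted p = 0.0684). The same replicate stood highest of its group for Nfe2l2 (1.56), Nqo1 (1.41) and Srxn1 (0.88). At 12 weeks Keap1 read 0.77, 0.76 and 0.76, inside the range of the controls, and no member was called (0.0182% of all genes were, and 3 members had an unadjusted p under 0.05, Gclc, Txnip and Txnrd1).

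Across all 6 groups of off livers Gclc lay below every control, but in none was it called. The differences from control were -0.63 and -1.10 at 4 and 12 weeks off c-Myc, -0.95 and -1.21 off TGFα (the first with 2 livers), and -0.77 and -1.07 off both. These 6 comparisons share the same 3 controls, whose Gclc values lay within 0.48 to 0.64. Txnrd1 likewise lay below every control in all 3 groups off for 12 weeks, with values of -0.49 to -0.12 and differences of -0.51, -0.62 and -0.60, none called. Txnip, off both transgenes for 12 weeks, read 0.36, -0.11 and -0.56, above every control, with a difference of 1.29 (adjusted p = 0.236). In each of the 6 groups 2 to 5 of the 10 members did not overlap the controls. The share of all genes without overlap was not counted, so these separations are described and not read as results.

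In the TGFα series no tumor group could be tested. The library labelled TGFα tumor 1 read -2.15 at Gclc, -1.18 at Srxn1, -0.63 at Akr1b8 and -0.15 at Keap1. All 4 of these values lay within the ranges of the c-Myc tumors and below all controls. At Txnip it read 1.25, above every other fitted array, and at Nqo1 -1.14. Of the 3 arrays kept apart, both tumors read 0.28 and 0.06 and the liver off TGFα read 1.37 at Gclc. In the same order they read -1.11, -1.48 and -0.27 at Srxn1. At Txnip they read 1.01, 1.09 and 0.97. Since their reference channel differed from that of the other arrays, these values cannot be set against the rest.

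Txnip was the member called in livers off TGFα for 4 weeks, where 0.679% of all genes passed and 0.2% were higher. It read 0.45 and 0.49 in the remaining 2 livers, both above the controls at -1.75 to -0.75, and was higher by 1.86 (SE 0.43, limma adjusted p = 0.0433), or 3.63-fold. The dimmer probe A_52_P420792 read 0.22 and 0.14 and differed by 0.72 (adjusted p = 0.148). The call ended without control 2 (adjusted p = 0.144), without control 3 (0.231) or without either liver (0.509 and 0.239), and both livers shared a slide and scan day with no control. With the slide as a random block the difference was 2.10 (adjusted p = 0.169). A sex score (Y-linked genes less Xist) was -2.98 to -2.44 in these livers and -3.29 to 5.31 in the controls. With this score as a covariate Txnip was no longer called. At 12 weeks off TGFα Txnip read -0.74, -1.67 and -0.11, and no member was called against control (0.0182% of all genes were, and 2 members had an unadjusted p under 0.05, Gclc at -1.21 and Txnrd1 at -0.62). Between 12 and 4 weeks off TGFα no member was called at its brightest probe (1.05% of all genes were, with 3 members at an unadjusted p under 0.05), and the dimmer Txnip probe was lower at 12 weeks, at -0.91 (adjusted p = 0.0459, with 1.15% of all probes called). Between 12 and 4 weeks off both transgenes no member was called either (1.12% of all genes were, with 1 member at an unadjusted p under 0.05, Keap1 at 0.82).

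Genes of the same pathway, taken from lists, were read in the same fit. Their counts in c-Myc tumors against controls stand beside a background of 35.9% of all genes called, with 4128 of the 21956 genes higher and 3764 lower. No called gene of these lists turned its sign under any of 5 other ways to make the values, but most calls ended under scaling to a common spread (0 of the NRF2 targets and 0 of the thioredoxin list called) or under median centring. Median centring left 0 of 6 lower calls among the regulators, 0 of 6 among the arrestin relatives, 2 of 9 in the thioredoxin list and 1 of 4 among the genes that remove superoxide and peroxide, by count. It also turned the median of 3 lists (regulators 0.20, NADPH supply 0.32 and aldo-keto reductases 0.04). Among the 14 regulators of NRF2, Keap1 and Nfe2l2 included, 6 were lower and 2 higher in c-Myc tumors than in controls. The list's median difference was -0.09, against -0.015 for all genes. Bach1 and Bach2, repressors that compete with NRF2 for the same elements, were lower by differences of -1.29 (adjusted p = 0.01) and -1.51 (adjusted p = 0.000743). Maff, a small MAF partner, was higher by 2.09 (adjusted p = 2.11e-05).

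Of 27 measured NRF2 target enzymes and exporters, 7 were lower and 1 was higher, with a median of -0.96. These 8 of 27 are no larger a share than the 35.9% of all genes that passed. Under median centring 5 were lower and 0 higher. The lower ones included Cyp2a5 (-3.82, adjusted p = 0.000184), the carboxylesterase Ces1g (-2.93, adjusted p = 0.000104), the growth regulator Osgin1 (-2.64, adjusted p = 0.000347) and the exporter Abcc3 (-2.15, adjusted p = 0.000113). The higher one was Hmox1, the haem oxygenase (1.29, adjusted p = 0.0106). After 4 weeks with c-Myc off, 12 of the 27 were higher and 1 lower than in the tumors, where 31.6% of all genes passed and 14.2% were higher. Median centring left 3 higher, and scaling to a common spread left 0 called, with a median of -0.05 in place of 1.07.

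Of 16 further genes of the thioredoxin and peroxiredoxin system, 9 were lower and 2 higher, with a median of -0.81. All 4 methionine sulfoxide reductases on the list, which reduce oxidised methionine with thioredoxin, were lower: Msra (-1.81), Msrb1 (-1.79), Msrb2 (-1.98) and Msrb3 (-1.08), each at an adjusted p of at most 0.000107. The mitochondrial reductase Txnrd2 was lower (-1.21), where the cytosolic Txnrd1 was not called. Prdx3 (0.84) and Prdx2 (0.43) were higher. In c-Myc off livers 10 of the 16 at 4 weeks and 12 at 12 weeks were higher than in the tumors, and 1 was lower at each time, where 31.6% and 31.2% of all genes passed. Median centring left 1 higher at 4 weeks and 6 at 12 weeks, and scaling to a common spread left 2 and 3.

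Of the 22 genes of glutathione synthesis and use, 7 were higher and 3 lower in c-Myc tumors, with a median of 0.05, where 35.9% of all genes passed. Median centring left 4 higher and 0 lower, and scaling to a common spread 2 and 0. Ggt1, which breaks down glutathione outside the cell and is known as a fetal liver and tumor marker, was higher by 3.26 (adjusted p = 2.24e-05). The peroxidase Gpx7 (2.85) was higher too, and Oplah, which returns oxoproline to glutamate, was lower (-1.92). The synthetase Gss, which follows Gclc in the pathway, did not pass (-0.12, adjusted p = 0.704). Thus within glutathione synthesis Gclc was called, and Gclm and Gss were not.

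Of 8 genes that remove superoxide and peroxide, 4 were lower and none higher, among them catalase, Cat (-2.35, adjusted p = 2.73e-06), and Sod1 (-1.49, adjusted p = 0.015). Of 10 genes that supply NADPH, the pentose phosphate genes G6pdx (1.88) and Pgd (1.04) were higher and Idh1 (-0.77) lower. Among 12 aldo-keto reductase relatives of Akr1b8, 6 were lower and 2 higher. Akr1b7, its close relative, was higher by 5.06 (adjusted p = 6.93e-06), opposite to Akr1b8, and Akr1c6 was lower (-4.53). Such near copies may share signal on an array. Of 10 arrestin relatives of Txnip and glucose-responsive genes 6 were lower and 2 higher, while Txnip itself was not called. Arrdc3 (-1.88) and the glucose-sensing factor Mlxipl (-1.40) were lower. Mlxip, with the smallest p of the list, was higher (0.885, limma adjusted p = 0.000801). The Mlxip call held under all 5 other ways to make the values, and those of Arrdc3 and Mlxipl each ended under 2.

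**Figure D4:**
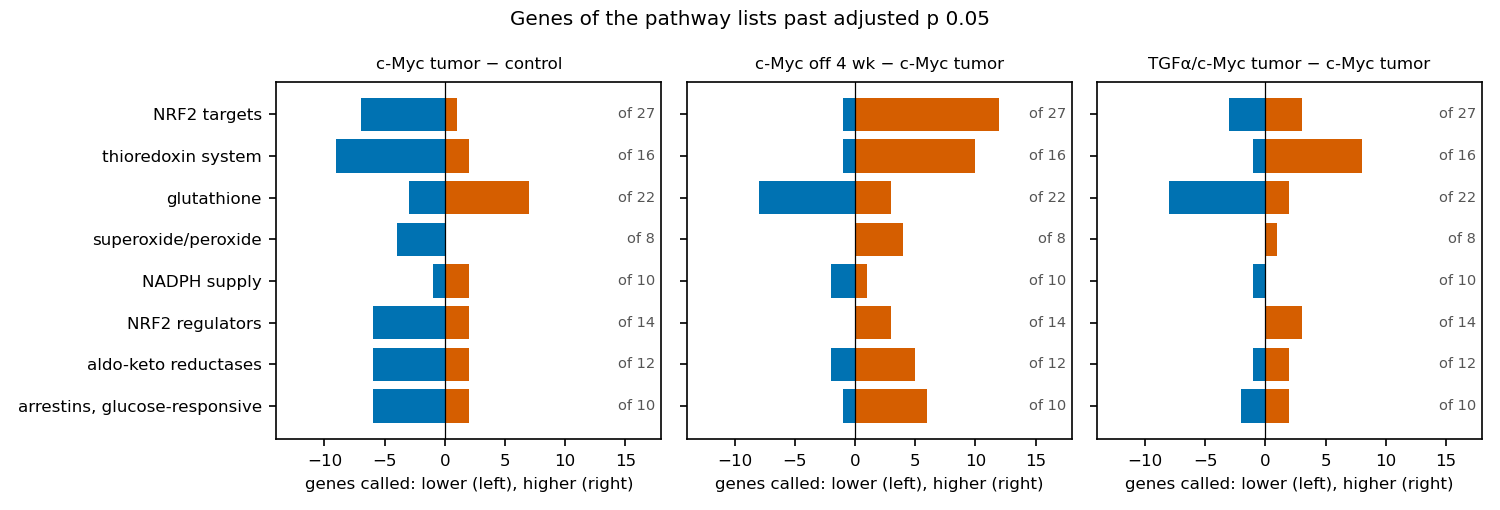
Number of genes of each pathway list (vertical axis) that passed an adjusted p of 0.05, lower to the left and higher to the right (horizontal axis), in 3 comparisons, with the number of measured genes at the right edge. In c-Myc tumors against controls the thioredoxin list has 9 of 16 lower, and the glutathione list has 7 of 22 higher.

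Between the TGFα/c-Myc and the c-Myc tumors, where 24.8% of all genes passed and 11.9% were higher, 8 of the 16 thioredoxin genes were higher and 1 lower. Of the 22 glutathione genes 8 were lower and 2 higher, and of the 27 NRF2 targets 3 were higher and 3 lower. These counts changed with the scaling. Median centring left no thioredoxin gene called (median -0.24), 6 glutathione genes lower and 3 targets lower, with 0 higher in either list. Scaling to a common spread gave 6 thioredoxin genes higher and 4 lower, 2 glutathione genes higher and 7 lower, and 1 target higher and 13 lower (median -2.19). Cell type markers moved in the same comparison. Hepatocyte markers were higher in 4 of 9 and endothelial markers in 6 of 8, with none lower. Neutrophil markers were lower in 5 of 7 and proliferation markers in 4 of 8, with none higher, and of 10 macrophage markers 5 were lower and 3 higher. Median centring left 0 hepatocyte markers and 3 endothelial markers called. Scaling to a common spread gave 2 hepatocyte markers higher and 4 lower, 1 endothelial marker lower, and 6 proliferation markers higher and none lower. The part of these markers in the list counts and in the member results was not tested.

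Over the 31 fitted arrays the called members ran together to different degrees, which is described here without a test, since the arrays share groups, slides and reference. Gclc correlated with Srxn1 at r = 0.76 and with Akr1b8 at r = 0.76, and Keap1 with Akr1b8 at r = 0.58. Nfe2l2 had an r of -0.01 with Gclc and -0.21 with Keap1. The genes most like Gclc in Pearson's r were Msrb3 (0.89), Hsd17b4 (0.88) and Tlcd2 (0.88). Those most like Akr1b8 were Fzd1 (0.91), Ptprb (0.91) and Adgrg6 (0.90). For Srxn1 they were Fbxo6 (0.90), Ptk2b (0.88) and Opn5 (0.87), for Keap1 Ncor1 (0.90), Nf1 (0.85) and Mon1a (0.84), and for Gclm Acad11 (0.83), Lman2 (0.79) and Ccdc91 (0.79).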

How the data were processed

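RNA of 34 mouse livers and liver tumors was read on Agilent 2-colour arrays. The deposited scanner files hold mean and background intensity per spot in both channels, per the file headers. Per the file headers, their log10 ratio (red to green) is of processed signals. The deposited series matrix holds log2 values whose background, dye and centring steps are unknown. Each matrix column, with its sign turned, correlated with the ratio used here at a Spearman rho of 0.63 to 0.885, with medians of -0.387 to 0.448, so it was taken as red over green. The submitters' processing notes name limma. No genome build is named in the labels or files used here.

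The mean signals were background-corrected (normexp, offset 50) and normalized by loess within arrays. Outlier spots were left out and spots of a probe averaged. Probes needed a Cy3 signal well above background on 3 or more arrays, and values on at least 20 arrays and in every group, which kept 31526. Of the probes, 24844 were named by RefSeq accession. Each of 21956 genes was read at its brightest probe. Groups were compared over 31 arrays with limma 3.58.1 in R 4.3.3 (lmFit, eBayes), with Benjamini-Hochberg adjustment over all kept probes and a threshold of 0.05, and the method was tested on simulated data. Slide, scan day and scanner come from the file headers. One Gclm probe carries that name in the newer files and not in the older ones. The members and gene lists, some of which share genes, were chosen with earlier results of these data known. Named beside the members are up to 4 genes per list, by p in the comparison described, and the 3 genes most like each member called between tumors and another group. Some printed list genes (Gss, Prdx2, Pgd, Txnrd2 and others below the first 4 by p) were chosen after their values were seen. The number of arrays limits the precision.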

Additional observations from a re-analysis of the deposited data

Results flagged for a closer look

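The response to turning the transgenes off was taken as off liver less tumor. It differed between mice with both transgenes and mice with c-Myc alone in 4 results. At 4 weeks 1 of the 16 probes was higher and 2 were lower, where 13.6% of all probes passed. At 12 weeks 1 probe was lower, the brightest of its gene, where 2.81% of all genes passed when read at their brightest probe. Each of these values contains the difference between the tumor groups given above and is not independent of it. For Gclc the difference of responses was -2.41 at 4 weeks and -2.24 at 12 weeks. For Keap1 it was -0.99 at 4 weeks. For the dimmer Gclm probe, A_52_P669425, it was 1.05 at 4 weeks (SE 0.30, limma adjusted p = 0.0228), while the brighter Gclm probe gave 0.92 (adjusted p = 0.103). Within the 7 c-Myc tumors, the single group large enough for a test of outlying samples, none of the 16 probes had one. The test looks for 1 outlying sample at either end, so it can miss a pair of low tumors, as for Nqo1.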

How the results depend on the processing

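Counts of called members, of 10, are compared with those given above. For c-Myc tumors against controls (4) the count was 2 under median centring and 1 under scaling to a common spread. Median centring in place of loess gave 0 for c-Myc off 4 weeks against tumors, TGFα/c-Myc off 12 weeks against tumors, both 4-week comparisons with control that had a call, TGFα/c-Myc against c-Myc tumors and both responses. Under it Keap1 turned to -0.171 (TGFα/c-Myc against c-Myc tumors) and to 0.372 (response at 4 weeks). Scaling to a common spread gave 1 for c-Myc off 12 weeks, 0 for c-Myc off 4 weeks, 3 for each TGFα/c-Myc off group against its tumors, 1 for TGFα/c-Myc tumors against controls and 0 for both called 4-week comparisons with control, and turned Gclc to -1.92 (c-Myc off 12 weeks against tumors) and Txnip to -3.39 (TGFα/c-Myc against c-Myc tumors). Scan day as a block gave 0 for c-Myc off 12 weeks against tumors, TGFα/c-Myc off 12 weeks against tumors, TGFα/c-Myc against c-Myc tumors and the 12-week response, and could not be fitted for the TGFα/c-Myc 4-week or the TGFα 4-week livers. Slide as a random block (within-slide correlation 0.435) gave 0 for TGFα/c-Myc off 12 weeks against tumors and both called 4-week comparisons with control, 2 for TGFα/c-Myc against c-Myc tumors and 1 for the 4-week response. Fitting only the groups compared gave 0 for TGFα/c-Myc off 12 weeks against tumors, both called 4-week comparisons with control and the 12-week response, and 2 for TGFα/c-Myc against c-Myc tumors. A threshold of 0.01 gave 0 for those first 3 and the 12-week response, and 1 for TGFα/c-Myc against c-Myc tumors and the 4-week response. At least 2-fold gave 0 for TGFα/c-Myc off 4 weeks against control and 1 for the 4-week response. Array weights gave 2 for c-Myc off 12 weeks against control and against 4 weeks, 3 for TGFα/c-Myc off 12 weeks against control, against 4 weeks and against tumors, 3 for TGFα/c-Myc off 4 weeks against control, 1 for TGFα/c-Myc against c-Myc tumors, and 1, 3 and 2 for TGFα off 12 weeks against control, 12 against 4 weeks and TGFα off 4 weeks against control. The deposited log ratio gave 2 for TGFα/c-Myc off 4 weeks against tumors, 1 for TGFα/c-Myc tumors against control, 0 for TGFα off 4 weeks, and 2 and 4 for the 12-week and 4-week responses. No background subtraction and the series matrix each gave 2, 1 and 4 for the first 2 of these and the 4-week response, and the matrix gave 0 for TGFα off 4 weeks, as did the sex score as a covariate. All arrays in their label groups gave 2 for TGFα 12 against 4 weeks and 0 for the 12-week response. Without a filter on dim probes the 4-week response had 1, and without c-Myc tumor 5 and TGFα/c-Myc tumor 3, chosen after the data were seen, TGFα/c-Myc off 4 weeks against tumors had 2. The other counts kept within 1.5 times. The share of all genes called under each setting is not given beside these counts. A changed count is therefore not read as a result about the members. The causes were not tested.

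Same-numbered samples correlated at -0.296 to 0.395 in their deviations, so the replicate numbers were not taken as pairing. With the replicate number as a block the counts were 4 for c-Myc tumors against controls, 4 for c-Myc off at either time against tumors, 4 for TGFα/c-Myc against c-Myc tumors and 0 for TGFα off 4 weeks against control. Here too the share of all genes called is not given, so these counts are not read as a result about the members.

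With each array left out in turn the counts ran from 4 to 5 for c-Myc tumors against controls, 3 to 4 and 2 to 4 for c-Myc off 4 and 12 weeks against tumors, 1 to 5 for TGFα/c-Myc against c-Myc tumors, 1 to 3 and 0 to 1 for the 4-week and 12-week responses, 0 to 2 for TGFα/c-Myc off 4 weeks against control and against tumors, and 0 to 1 for TGFα/c-Myc off 12 weeks against tumors and TGFα off 4 weeks against control. The counts stayed at 0 elsewhere. The share of all genes called with each array left out is not given, so no result about the members is read from these ranges.

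Median centring moved the median of all genes to -0.11 (c-Myc off 4 weeks against tumors), -0.103 (TGFα/c-Myc tumors against control), -0.207 (TGFα/c-Myc against c-Myc tumors) and 0.114 (TGFα/c-Myc off 4 weeks against tumors), and the matrix to -0.183 and 0.302 in the second and the last of these. Higher genes made up 52.3% of those called in c-Myc tumors against controls and 69.6% under median centring. The shares were 44.8% and 24.5% for c-Myc off 4 weeks, 47.5% and 63.4% for c-Myc off 12 weeks and 47.9% and 15.7% for TGFα/c-Myc against c-Myc tumors.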
